A study of Mus musculus with 7 samples.

Results

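Estradiol was compared with vehicle in endometrial epithelial cells of mice without ovaries. The comparison rests on 3 of the 7 libraries of the series, chosen by their labels: 2 from mice given estradiol and 1 from vehicle. All groups were female C57BL/6 mice whose ovaries had been removed, at an age of 6 to 7 weeks as stated for 18 mice. The estradiol mice carried a low-dose pellet of 0.01 mg that releases over 60 days, and were treated for 28 days. The stated arms of 6 mice were assigned at random to subcutaneous tamoxifen in peanut oil at 0.5 mg per day, to the same tamoxifen with oral alpelisib at 30 mg/kg per day, or to vehicle, also for 28 days. Alpelisib inhibits the alpha catalytic subunit of PI3 kinase. The tamoxifen libraries and the libraries of tamoxifen plus alpelisib, 2 each, enter here only for the spread between mice and as a second comparison for estradiol. The sources used here do not say if 1 mouse or pooled mice gave the vehicle library. Every vehicle value below is a single value without an SD, and anything particular to that library cannot be told apart from what estradiol changed.

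Estradiol, the main ovarian estrogen, acts in the uterus through estrogen receptor alpha (Esr1), a hormone-activated transcription factor present in epithelium and stroma. In the mouse it drives epithelial proliferation, induces secretory products such as lactotransferrin, and raises the progesterone receptor in the stroma while lowering it in the luminal epithelium. Removal of the ovaries takes away the main source of the hormone, so the vehicle group is an estrogen-deprived uterus. The comparison asks which transcripts of the epithelium differ when low-dose estradiol is given back.

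RNA levels were given per gene as FPKM, the number of sequenced fragments divided by transcript length and library size. The FPKM of all genes summed to 323309 and 264322 in the estradiol libraries 1 and 2, and to 383379 in the vehicle library. An FPKM of at least 1 was reached by 11167 and 10968 genes in the estradiol libraries and by 10668 genes in the vehicle library. Depth was not given. When the smallest common value step among 4144 genes with a single annotated transcript was taken as 1 fragment of 150 bases, it gave 17.6 M fragments for estradiol 1 and 19.5 M for vehicle. For estradiol 2 the estimate of 18.2 M rests on 29 genes at that step, against 157 to 221 in the other 6 libraries, and is not reliable. The estradiol 2 library stood apart in other ways too: Rn45s, the precursor of ribosomal RNA, was listed at 764 FPKM in estradiol 1, 2276 in estradiol 2 and 240.3 in vehicle, and between 189 and 530.4 in the other 4 libraries. Rmrp, the RNA of the mitochondrial RNA processing enzyme, was at 51.5 in estradiol 1, 337 in estradiol 2 and 12.97 in vehicle. The estradiol 1 library held liver transcripts that the estradiol 2 library nearly lacked. Albumin (Alb) had 56.3 FPKM in estradiol 1, 0.029 in estradiol 2 and 12.9 in vehicle, and the apolipoprotein Apoa2 had 46.2, 0 and 8.24 FPKM in the same order. The part of these differences in the results was not tested.

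The label of the cells was checked against markers. Of 18 markers of uterine epithelium all passed the filter on low values. The epithelial adhesion gene Epcam had 235 and 202 FPKM in the estradiol libraries and 206 FPKM in the vehicle library, and Krt19 had 705 and 595 FPKM with estradiol and 820.0 FPKM with vehicle. The smooth muscle markers summed to 16.5 and 14.2 FPKM over 10 genes with estradiol and to 81.0 with vehicle, and 16 stromal markers summed to 257 and 250 FPKM with estradiol and to 320 with vehicle. The epithelial markers summed to 3964 and 3283 FPKM with estradiol and to 7918 FPKM with vehicle. Much of that difference lay in Krt8, Krt18 and Cldn4. Krt8 had 839 and 769 FPKM with estradiol and 2295 with vehicle, Krt18 had 444 and 491 against 1542, and Cldn4 had 171 and 95.2 against 1442. In the test described below 5 of the 18 markers rose, 6 fell and 7 did not pass. Epithelial transcripts were far above those of muscle and stroma in all 3 libraries, with both present. In bulk RNA fewer cells of a type and less RNA per cell cannot be told apart.

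Of 12314 genes tested, 4366 differed between estradiol and vehicle at an adjusted p under 0.05 (35.5%), of which 2793 were higher with estradiol (22.7%) and 1573 lower (12.8%). The test was limma's moderated test on log2(FPKM + 1) with Benjamini-Hochberg adjustment. All fold changes below are differences on that scale, given with their SE, and they understate changes of genes with low values. A change of at least 2-fold was also reached by 2271 of these genes (18.4%), 1351 higher (11%) and 920 lower (7.47%). Taken library by library, 1087 genes were at least 2-fold above vehicle in both estradiol libraries, 772 were at least 2-fold below in both, and 14 went opposite ways. The 2 estradiol libraries differed at least 2-fold from each other at 358 genes. The median log2 fold change over all genes tested was 0.12. It was 0.03 with median-of-ratios scaling, 0.02 with quantile normalization and 0.45 with TPM (each library rescaled to 1 common sum), and the share of higher genes among those called moved with it, at 64% in the test as described, 52.2% (2287 of 4384), 50.1% (2223 of 4435) and 78.8% (4244 of 5383). With only the estradiol and vehicle libraries in the fit, 1597 genes passed. Without replicate 1 of tamoxifen plus alpelisib 2808 passed, and without its replicate 2 the count was 2837. That pair was at least 2-fold apart at 72 genes, and its spread enters the test. Without estradiol replicate 1 the count was 5063 and without estradiol replicate 2 it was 3877. The p-values measure the spread between these samples, named by the labels as separate mice where a group has 2.

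**Figure D1:**
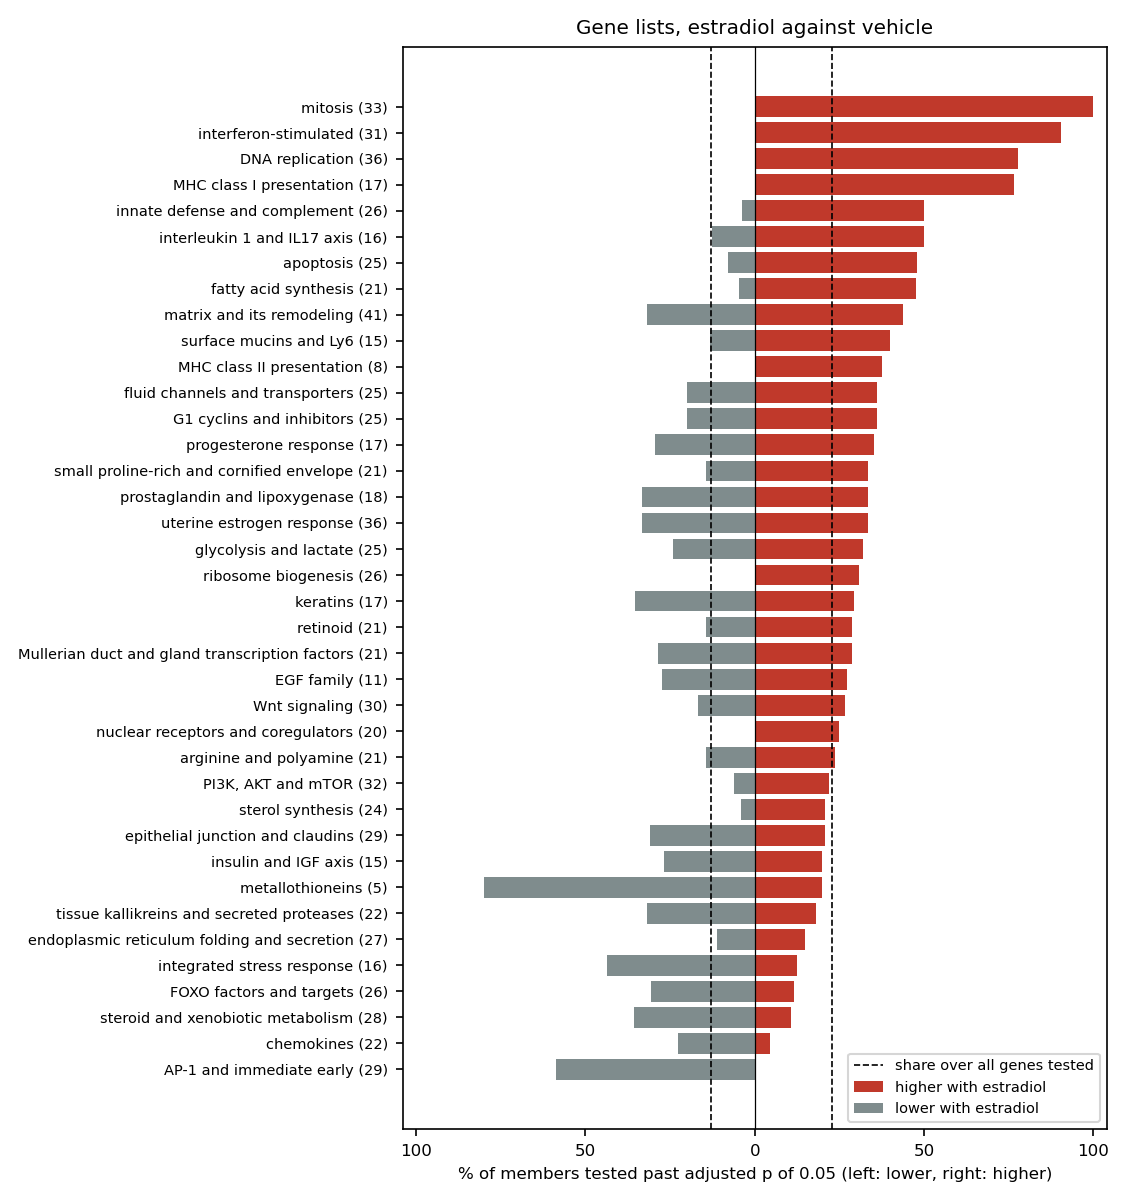
Share of each gene list that passed an adjusted p of 0.05 between estradiol and vehicle, in percent of the members tested (number in brackets), with members higher with estradiol to the right and members lower to the left. Dashed lines mark the shares over all genes tested, 22.7% higher and 12.8% lower. The mitosis bar reaches 100% on the right, and the AP-1 and immediate early list has a bar on the left only.

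Among genes with a mean of at least 5 FPKM over the 3 libraries, the largest increases included secreted and surface proteins of epithelia. Spink12, of the Kazal family of serine protease inhibitors, had 116 and 72.8 FPKM in the estradiol libraries and 0.757 FPKM in the vehicle library, a log2 fold change of 5.73 ± 0.35 (adjusted p = 0.000421). Mmp7, a matrix metalloproteinase made by epithelial cells, had 64.8 and 39.2 FPKM with estradiol and 0.881 with vehicle (4.77 ± 0.34, adjusted p = 0.000599). Pigr, which moves polymeric IgA through epithelial cells into secretions, had 120.2 and 147 FPKM with estradiol and 5.41 with vehicle (4.38 ± 0.21, adjusted p = 0.000373). By that choice both estradiol libraries stood above the vehicle library in each of these genes. The other 7 of the 10 highest, with log2 fold changes from 4.25 to 3.95, were the urate oxidase Uox, the class I histocompatibility gene H2-Q7, the peptidoglycan recognition protein Pglyrp1, Ltf, Ccdc88b, the membrane metalloreductase family gene Steap1 and the interleukin 1 family cytokine Il1f6. H2-Q7 has close relatives in the genome, and its reads cannot be assigned with certainty.

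The largest decreases began with tissue kallikrein Klk1, a secreted serine protease, at 0.736 and 0.236 FPKM with estradiol and 57.0 FPKM with vehicle (-5.31 ± 0.42, adjusted p = 0.000729). Gdf15, a secreted factor that responds to cell stress, had 57.4 and 28.5 FPKM with estradiol and 1237 FPKM with vehicle (-4.90 ± 0.71, adjusted p = 0.00441). Plaur, the urokinase receptor, had 10.96 and 5.19 FPKM with estradiol and 232 with vehicle (-4.76 ± 0.50, adjusted p = 0.00156). Among the estradiol and vehicle libraries, vehicle was the high one in all 3 genes. In Gdf15 and Plaur it also exceeded every other library of the series. The highest other values were 111 FPKM for Gdf15 in tamoxifen 2 and 136 FPKM for Plaur in replicate 2 of tamoxifen plus alpelisib. Klk1 was far higher in the tamoxifen libraries, at 9358 and 17320 FPKM, than in vehicle. The rest of the 10 lowest were the secreted phospholipase Pla2g10, Efhd1, the metalloproteinase inhibitor Timp3, the matricellular gene Ctgf, the matrix protein gene Dpt, the metallothionein Mt3 and the platelet chemokine gene Ppbp, with log2 fold changes from -4.70 to -4.14. Timp3 had 5.11 and 5.01 FPKM with estradiol and 128 FPKM with vehicle. Both estradiol values were close to each other and far below the vehicle value.

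**Figure D2:**
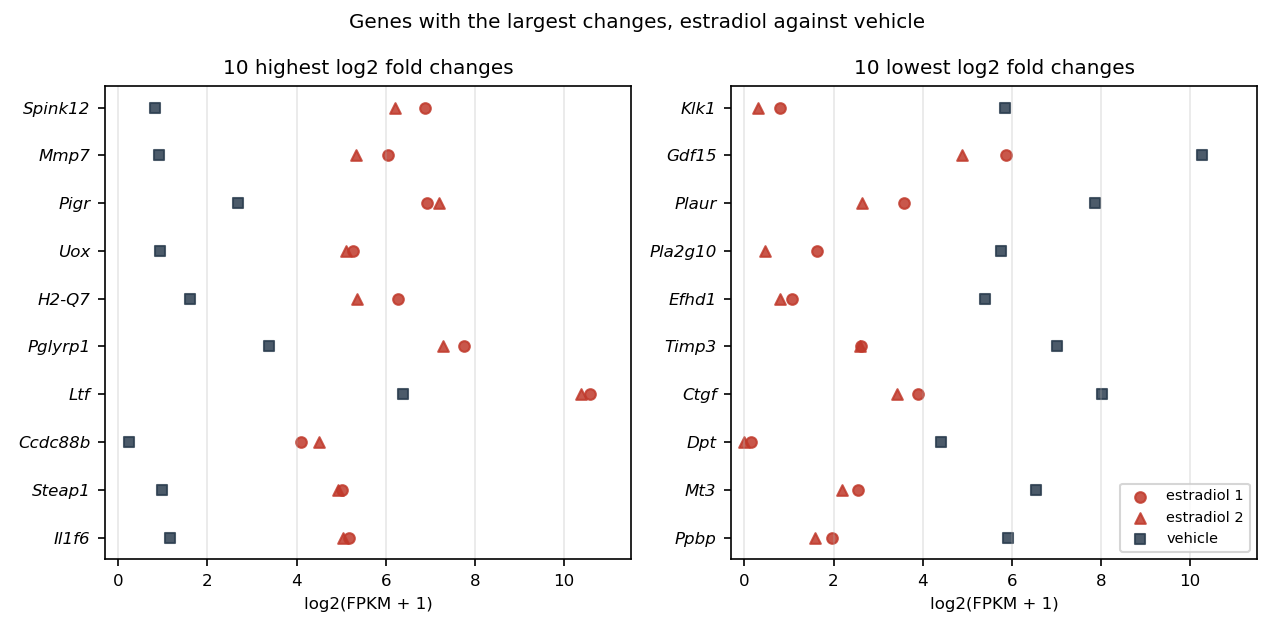
Levels of the 10 genes with the highest and the 10 with the lowest log2 fold change, on a log2(FPKM + 1) axis, in estradiol 1 (circles), estradiol 2 (triangles) and vehicle (squares). The choice of the 20 genes required both estradiol libraries to lie on the same side of the vehicle library. The pair lies closer to each other than to vehicle.

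Among hormone receptors, the progesterone receptor gene Pgr rose. It had 37.2 and 39.4 FPKM with estradiol and 15.2 FPKM with vehicle (1.28 ± 0.15, adjusted p = 0.00204). Esr1 itself had 31.5 and 53.5 FPKM with estradiol and 30.0 FPKM with vehicle, a log2 fold change of 0.44 ± 0.30 that did not pass (adjusted p = 0.292). Estradiol 1 lay close to vehicle and estradiol 2 above it, and without estradiol replicate 1 the gene passed (adjusted p = 0.0176; range over the alternatives 0.0176 to 0.75). Greb1, an estrogen receptor coregulator induced by estrogen in many tissues, had 11.6 and 16.1 FPKM with estradiol and 11.1 with vehicle (0.28 ± 0.23, adjusted p = 0.381). Of 20 receptors and coregulators tested, 5 rose (25%, near the 22.7% over all genes) and 0 fell, with a median of 0.36. Besides Pgr these were the orphan receptor Nr2f2 (1.73 ± 0.18), the coactivator Ncoa3 (1.31 ± 0.23), the membrane estrogen receptor Gper1 (1.15 ± 0.17) and Gata2 (0.97 ± 0.28). Without estradiol replicate 1 the counts were 8 and 3, and without estradiol replicate 2 they were 4 and 1. Gata2 lost its call without either estradiol library or either library of tamoxifen plus alpelisib (adjusted p up to 0.0977).

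Genes known as uterine estrogen targets split evenly. Of 36 tested, 12 rose with estradiol (33.3%, against 22.7% over all genes) and 12 fell (33.3%, against 12.8%). The median was 0.14 against 0.12 over all genes. The members that rose included secreted defense proteins and a surface mucin. Lactotransferrin (Ltf), the iron-binding secretory protein whose mouse gene is a classic estrogen target, had 1520 and 1324 FPKM with estradiol and 83.1 FPKM with vehicle (4.08 ± 0.30, adjusted p = 0.00064). Complement factor Cfb had 263 and 277 FPKM with estradiol and 19.5 with vehicle (3.72 ± 0.23), and C3, the central complement protein, had 448 and 652 FPKM with estradiol and 89.4 with vehicle (2.58 ± 0.36, adjusted p = 0.00394). The surface mucin Muc1 had 104.9 and 83.1 FPKM with estradiol and 12.0 with vehicle (2.86 ± 0.21), and the arginine deiminases Padi4 and Padi2 rose by 3.05 ± 0.22 and 2.40 ± 0.30. The growth factor Wnt4 and the cornified envelope genes Sprr2a1 and Sprr2b also rose, though reads of near-identical Sprr2 copies can be shared. The members that fell included early-response and growth genes. Cyclin D1 (Ccnd1) had 21.5 and 21.9 FPKM with estradiol and 51.5 FPKM with vehicle (-1.21 ± 0.19, adjusted p = 0.0055), a call lost with TPM (adjusted p = 0.0578, the highest over the alternatives). The angiogenic factor Vegfa, the receptor inhibitor Errfi1, Klf4, Myc, Cebpb and Cdkn1a fell as well, by 1.68 to 2.72. Without estradiol replicate 2 the calls of Myc (adjusted p = 0.0554) and Cebpb were lost, and that of Cebpb also without either library of tamoxifen plus alpelisib (adjusted p up to 0.1). Igf1 had 0.995 and 1.21 FPKM with estradiol and 1.08 with vehicle (0.01 ± 0.17, adjusted p = 0.97), and Wnt7a, a luminal signal, had 45.2 and 37.3 FPKM with estradiol and 29.9 with vehicle (0.45 ± 0.21, adjusted p = 0.147).

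The promoter of Ltf is shown because it leads this group and holds an estrogen receptor half-site. Promoters here are the 250 bases before the RefSeq gene start on GRCm38.p6, known for 9660 of the 12314 genes tested, and motifs were searched on both strands. The full palindromic estrogen response element was found in 1 of the 9660 promoters (0.0104%) and in 0 of 30 promoters of the estrogen list. The half-site AGGTCA was found in 6 of 30 (20%), against 1033 of 9660 (10.7%). It was found in 228 of 2183 promoters of all genes called higher (10.4%), and in 141 of 1223 of those called lower. The half-site was thus not more frequent among genes called higher than over all genes tested. The 6 holders of the estrogen list included Ltf and C3, which rose, and Greb1 and Igf1, which did not pass. In the Ltf sequence (chr9:111019042-111019291, plus strand) the capitals mark AGGTCA, 46 to 41 bases before the start. A match in letters is a description, and no match says only that the letters are not in this window.
Ltf: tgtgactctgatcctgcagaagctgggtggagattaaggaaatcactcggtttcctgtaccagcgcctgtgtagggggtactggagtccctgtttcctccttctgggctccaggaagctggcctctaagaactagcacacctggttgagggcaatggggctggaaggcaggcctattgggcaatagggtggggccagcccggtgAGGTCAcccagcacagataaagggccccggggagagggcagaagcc

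Progesterone response genes moved both ways. Of 17 tested, 6 rose (35.3%, against 22.7% over all genes) and 5 fell (29.4%, against 12.8%), with a median of -0.46. Irg1, which makes itaconate and is known in the mouse uterus as a progesterone-induced gene, had 18.8 and 17.7 FPKM with estradiol and 0.477 with vehicle (3.70 ± 0.16, adjusted p = 0.00031). The lipoxygenase Alox15 had 132 and 123 FPKM with estradiol and 14.1 with vehicle (3.09 ± 0.24). The signal Ihh rose by 1.61 ± 0.30. In contrast the sulfotransferase Sult1d1 had 8.19 and 5.20 FPKM with estradiol and 93.4 FPKM with vehicle (-3.64 ± 0.26, adjusted p = 0.000592), and the endocytic receptor Lrp2 fell by 1.68 on the log2 scale. Areg, Calb1 and Cyp26a1 did not pass, with log2 fold changes from -0.52 to -0.29, although Calb1 passed without estradiol replicate 1.

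Every mitosis gene tested was higher with estradiol. In total 33 of 33 members passed (100%, against 22.7% higher over all genes), the median log2 fold change was 2.53, and both estradiol libraries lay above vehicle in all 33. The summed level was 572 and 506 FPKM with estradiol and 52.9 FPKM with vehicle. Mki67, the proliferation antigen, had 16.6 and 30.4 FPKM with estradiol and 1.17 FPKM with vehicle (3.44 ± 0.34, adjusted p = 0.00128). Cyclin B1 (Ccnb1), which activates the mitotic kinase, had 17.7 and 15.7 FPKM with estradiol and 0.812 with vehicle (3.29 ± 0.18, adjusted p = 0.000421). Cyclin A2 (Ccna2), the kinesin Kif20a and the spindle checkpoint kinase Bub1b rose by 3.01 ± 0.16, 2.85 ± 0.16 and 2.79 ± 0.17. The smallest change in the list was that of the kinetochore gene Nuf2, at 1.88. All 33 passed under each of the alternatives run, including the fit on the 3 libraries alone.

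The promoters of Mki67, Top2a and Ccnb2 are shown because mitotic promoters are known to carry CCAAT boxes and a cell cycle homology region. They were picked, after the values were seen, as members of high fold change that hold both motifs. Capitals mark the CCAAT box and the homology region letters TTTGAA on either strand, so that a match on the other strand stands as its reverse complement. CCAAT was found in 20 of 27 mitosis promoters (74.1%), against 3530 of 9660 (36.5%) over all genes tested, and TTTGAA in 9 of 27 (33.3%), against 1022 of 9660 (10.6%). All 3 lie on the minus strand of GRCm38.p6: Mki67 at chr7:135716380-135716629, Top2a at chr11:99024190-99024439 and Ccnb2 at chr9:70421555-70421804.
Mki67: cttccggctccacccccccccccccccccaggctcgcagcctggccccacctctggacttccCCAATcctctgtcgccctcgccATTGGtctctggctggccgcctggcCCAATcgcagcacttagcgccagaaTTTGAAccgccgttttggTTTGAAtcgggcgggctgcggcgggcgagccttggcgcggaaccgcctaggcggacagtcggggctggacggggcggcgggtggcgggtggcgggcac
Top2a: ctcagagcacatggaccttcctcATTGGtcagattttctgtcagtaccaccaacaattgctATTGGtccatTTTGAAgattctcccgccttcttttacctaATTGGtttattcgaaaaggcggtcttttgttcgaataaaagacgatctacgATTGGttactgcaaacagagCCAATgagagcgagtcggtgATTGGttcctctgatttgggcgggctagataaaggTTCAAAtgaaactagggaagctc
Ccnb2: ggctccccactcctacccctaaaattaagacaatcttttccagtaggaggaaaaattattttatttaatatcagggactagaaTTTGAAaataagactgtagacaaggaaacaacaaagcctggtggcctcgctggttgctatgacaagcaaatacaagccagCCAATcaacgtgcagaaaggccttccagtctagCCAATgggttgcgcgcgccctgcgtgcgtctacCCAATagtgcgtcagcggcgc
The Mki67 sequence holds 3 CCAAT matches between 188 and 137 bases before the start, and the Ccnb2 sequence holds 3 between 87 and 17 bases before it. The topoisomerase Top2a had 46.5 and 53.5 FPKM with estradiol and 3.93 FPKM with vehicle, and cyclin B2 (Ccnb2) had 25.8 and 16.7 FPKM with estradiol and 1.496 with vehicle.

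DNA replication genes followed with smaller changes. Of 36 tested, 28 rose (77.8%, against 22.7% over all genes) and 0 fell, with a median of 1.02. Both estradiol libraries lay above vehicle in 35. Uhrf1, which maintains DNA methylation behind the fork, had 30.5 and 33.4 FPKM with estradiol and 5.79 with vehicle (2.28 ± 0.16, adjusted p = 0.000535). The flap endonuclease Fen1 had 16.4 and 15.9 FPKM with estradiol and 3.13 with vehicle (2.06 ± 0.15), and the helicase subunit Mcm5 had 41.0 and 49.4 FPKM with estradiol and 10.4 with vehicle (2.01 ± 0.18). The clamp gene Pcna did not pass, at 133 and 93.8 FPKM with estradiol and 81.6 with vehicle (0.45). With only the estradiol and vehicle libraries in the fit 12 of the 36 passed. CCAAT was found in 18 of 28 replication promoters (64.3%).

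Among 25 regulators of the G1 phase 9 rose (36%, against 22.7% over all genes) and 5 fell (20%, against 12.8%). Cyclin E1 (Ccne1) had 4.87 and 4.39 FPKM with estradiol and 0.466 with vehicle (1.94 ± 0.16), and E2f2, a transcription factor of S phase genes, rose by 1.48 ± 0.22. Cyclin D2 (Ccnd2) had 1.58 and 2.36 FPKM with estradiol and 20.1 FPKM with vehicle (-2.84 ± 0.25), and the inhibitor Cdkn1a had 17.7 and 11.7 FPKM with estradiol and 82.0 with vehicle (-2.43 ± 0.33, adjusted p = 0.00346). Cyclin E1 was thus higher, and cyclins D1 and D2 and the inhibitor Cdkn1a lower, with estradiol. With the 3 libraries alone 3 members passed upward. Of the ribosome biogenesis genes 8 of 26 rose (30.8%, against 22.7% over all genes) and 0 fell, with a median of 0.45. The count upward was 1 with the 3 libraries alone and 2 without either library of tamoxifen plus alpelisib.

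**Figure D3:**
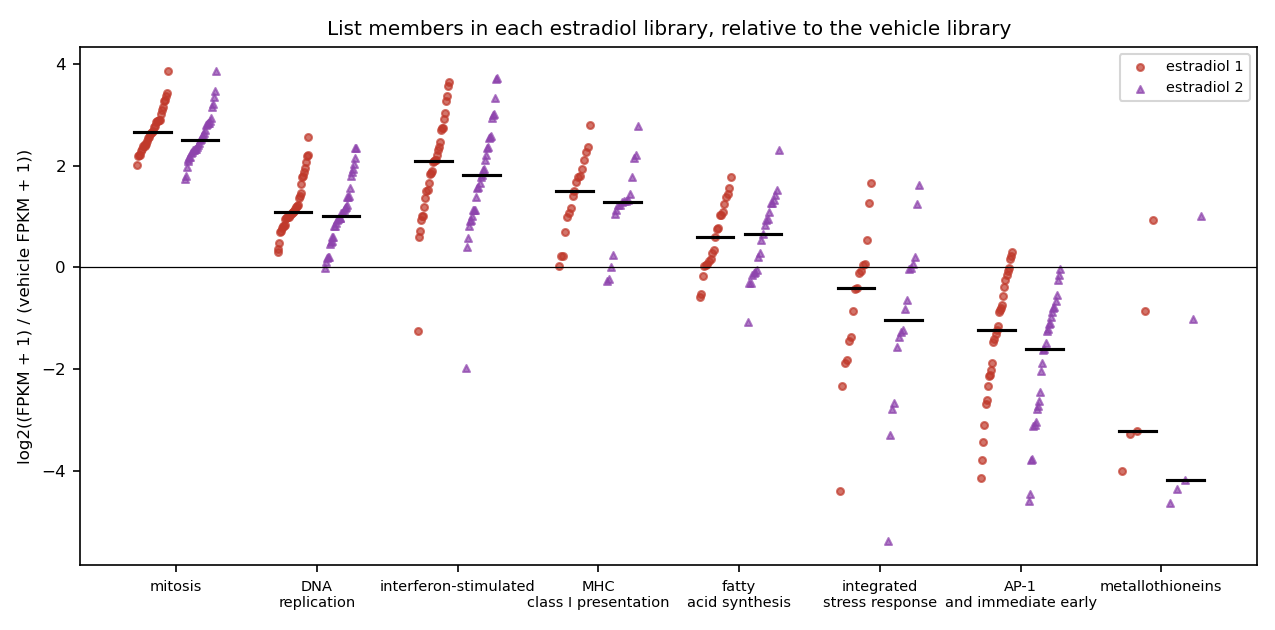
Members of 8 gene lists as log2((FPKM + 1) / (vehicle FPKM + 1)), for estradiol 1 (circles) and estradiol 2 (triangles), with the median of each as a bar and members ordered by value. All 33 mitosis members lie above 0 in both libraries, and the AP-1 and metallothionein members lie mostly below 0.

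Interferon-stimulated genes were higher with estradiol. Of 31 tested 28 rose (90.3%, against 22.7% over all genes) and 0 fell (median 1.88). Their summed level was 598 and 467 FPKM with estradiol and 129.5 FPKM with vehicle. Rtp4, a chaperone of membrane receptors, had 17.3 and 16.8 FPKM with estradiol and 1.25 with vehicle (3.01 ± 0.15, adjusted p = 0.000421). The nucleic acid sensor Zbp1 had 18.9 and 24.6 FPKM with estradiol and 0.925 with vehicle (3.55 ± 0.23), and the oligoadenylate synthetase Oas3 had 7.31 and 7.42 FPKM with estradiol and 0.103 with vehicle (2.92 ± 0.16). The transcription factors Stat2 and Irf7 of the pathway rose by 1.78 ± 0.19 and 3.32 ± 0.30. The chemokine Cxcl10 went the other way without passing, at 7.97 and 4.48 FPKM with estradiol and 20.5 with vehicle (-1.62 ± 0.56, adjusted p = 0.0656), and it passed as lower with median-of-ratios scaling or quantile normalization, with the 3 libraries alone, and without either or both tamoxifen libraries. Across the series Rtp4 had 17.3 and 16.8 FPKM with estradiol, 14.7 and 16.5 with tamoxifen, 16.5 and 17.2 with tamoxifen plus alpelisib, and 1.25 with vehicle. The vehicle library was the low one and the 6 treated libraries lay close together. With 1 vehicle library a low state of that library and a rise under each treatment cannot be told apart.

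The promoters of Isg15, Oas3 and Oas1a, members that hold the interferon-stimulated response element (GAAA, any 2 bases, GAAA), are shown for this group. They were picked after the values were seen. Capitals mark the matches, which overlap one another in Isg15 and Oas1a. The motif was found in 10 of 21 promoters of the list (47.6%), against 258 of 9660 (2.67%) over all genes tested and 77 of 2183 (3.53%) among all genes called higher. All 3 are on the minus strand of GRCm38.p6: Isg15 at chr4:156200819-156201068, Oas3 at chr5:120777660-120777909 and Oas1a at chr5:120907526-120907775.
Isg15: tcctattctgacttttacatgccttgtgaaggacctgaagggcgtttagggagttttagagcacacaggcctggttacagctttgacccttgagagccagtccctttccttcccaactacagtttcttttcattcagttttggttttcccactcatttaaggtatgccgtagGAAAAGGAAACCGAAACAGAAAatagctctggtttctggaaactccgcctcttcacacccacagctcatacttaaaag
Oas3: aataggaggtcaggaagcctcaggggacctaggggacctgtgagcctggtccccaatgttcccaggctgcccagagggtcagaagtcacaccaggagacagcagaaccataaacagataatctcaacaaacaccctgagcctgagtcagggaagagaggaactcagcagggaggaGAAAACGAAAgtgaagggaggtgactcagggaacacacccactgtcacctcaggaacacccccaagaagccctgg
Oas1a: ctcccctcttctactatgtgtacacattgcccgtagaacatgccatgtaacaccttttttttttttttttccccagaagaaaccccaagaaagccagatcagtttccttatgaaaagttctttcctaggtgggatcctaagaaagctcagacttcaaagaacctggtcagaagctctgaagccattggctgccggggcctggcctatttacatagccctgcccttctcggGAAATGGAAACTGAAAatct
The ubiquitin-like modifier Isg15 had 40.7 and 42.3 FPKM with estradiol and 3.32 with vehicle, and Oas1a had 29.5 and 26.2 FPKM with estradiol and 3.56 with vehicle.

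Genes that present antigen on class I molecules were higher too. Of 17 tested 13 rose (76.5%, against 22.7% over all genes) and 0 fell, with a median of 1.49, and 7 rose with the 3 libraries alone. The immunoproteasome subunit Psmb8 had 167 and 166 FPKM with estradiol and 23.2 FPKM with vehicle (2.79 ± 0.17, adjusted p = 0.000421), and the peptide transporter Tap1 had 19.0 and 18.2 FPKM with estradiol and 3.18 with vehicle (2.23 ± 0.18). The class I regulator Nlrc5 rose by 1.82 ± 0.27. Of 8 class II genes 3 rose: the invariant chain Cd74, with 209 and 126 FPKM with estradiol and 18.7 with vehicle (3.05 ± 0.33), the protease Ctss (2.69 ± 0.30) and H2-Ab1 (1.69 ± 0.19), and 5 rose without estradiol replicate 2. In the fit on all libraries the share of class II genes higher was 37.5%, against 22.7% over all genes. Of 10 macrophage and dendritic cell markers tested 7 rose (70%, against 22.7%) and 0 fell. The 13 genes of the list in the table summed to 179 and 112 FPKM with estradiol and to 53.3 with vehicle. Cd14 alone had 67.1 and 50.7 FPKM with estradiol and 20.8 with vehicle. The 3 that did not pass were Lyz2, Cd68 and C1qb. Lyz2 had 19.6 and 8.79 FPKM with estradiol and 13.7 with vehicle, and Cd68 had 14.8 and 10.7 against 10.25. Csf1r, the defining receptor of macrophages, had 4.27 and 4.19 FPKM with estradiol and 0.523 with vehicle, and Adgre1 had 3.32 and 2.36 FPKM with estradiol and 0.278 with vehicle. The pan-leukocyte gene Ptprc was under the filter in the 3 libraries at 0.940 and 0.793 FPKM with estradiol and 0.234 with vehicle. T and NK cell markers summed to 2.75 and 1.11 FPKM with estradiol and 1.59 with vehicle, and Cd3e was at 0 in all 3. The part of these cells in the class II change was not tested.

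Of 26 genes of innate defense and complement 13 rose (50%, against 22.7% over all genes) and 1 fell, with a median of 0.84. Besides Ltf, C3 and Cfb, the complement regulator Cfi had 63.7 and 47.4 FPKM with estradiol and 3.25 with vehicle (3.72 ± 0.21). In the separate chemokine list the 1 member that rose was the neutrophil chemoattractant Cxcl5. It had 20.5 and 15.4 FPKM with estradiol and 0.468 with vehicle (3.68 ± 0.22). Of 22 chemokines 1 rose and 5 fell, with a median of -0.35, and 3 rose without estradiol replicate 2. The chemokine shares in the fit on all libraries were 4.55% higher (against 22.7% over all genes) and 22.7% lower (against 12.8%). The stromal chemokine Cxcl12 had 0.439 and 0.318 FPKM with estradiol and 15.9 FPKM with vehicle (-3.62 ± 0.21), and the monocyte chemoattractant Ccl2 had 0.094 and 0.095 FPKM with estradiol and 15.9 with vehicle (-3.95 ± 0.25). Cxcl12 and Ccl2 were high in the vehicle library, where smooth muscle markers and most of the stromal markers that passed the test, described below, were also higher. In the interleukin 1 and IL17 axis 8 of 16 rose (50%, against 22.7% over all genes) and 2 fell (12.5%, near the 12.8%). Il1a had 17.4 and 14.4 FPKM with estradiol and 3.17 with vehicle (2.01 ± 0.21), its receptor Il1r1 rose by 1.48 ± 0.14, and the receptor Il17rb had 31.0 and 27.8 FPKM with estradiol and 121 FPKM with vehicle (-2.01 ± 0.26).

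The luminal surface and its fluid channels changed in both directions. The membrane mucins Muc20 and Muc4 rose beside Muc1, by 2.47 ± 0.16 and 2.58 ± 0.17. The anion exchanger pendrin (Slc26a4) had 11.6 and 10.96 FPKM with estradiol and 0.033 FPKM with vehicle (3.57 ± 0.16, adjusted p = 0.000373). The chloride channel Cftr had 9.99 and 11.4 FPKM with estradiol and 2.06 with vehicle (1.93 ± 0.15), whereas the sodium channel subunit Scnn1a had 2.17 and 1.33 FPKM with estradiol and 15.5 with vehicle (-2.60 ± 0.21). Pendrin and Cftr were thus higher and this sodium channel subunit lower. The carbonic anhydrase Car12 rose by 1.97 ± 0.17, and the sodium pump regulator Fxyd4 and the water channel Aqp5 fell by 3.84 and 1.75. Of 25 such genes 9 rose (36%, against 22.7% over all genes) and 5 fell (20%, against 12.8%). Among tight junction genes the claudins Cldn4 and Cldn10 fell. Cldn4 had 171 and 95.2 FPKM with estradiol and 1442 FPKM with vehicle (-3.49 ± 0.55, adjusted p = 0.00557), and Cldn10 had 33.2 and 26.2 FPKM with estradiol and 184 with vehicle (-2.60 ± 0.22). The scaffold Tjp3 rose by 1.86 ± 0.20.

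Of 17 keratins 5 rose (29.4%, against 22.7% over all genes) and 6 fell (35.3%, against 12.8%). The basal keratin Krt14 had 61.4 and 60.9 FPKM with estradiol and 10.6 FPKM with vehicle (2.42 ± 0.18). Its partner Krt5 had 73.4 and 77.2 FPKM with estradiol and 16.8 with vehicle (2.10 ± 0.20). Krt6a rose by 2.88 ± 0.16. The simple keratin Krt18 had 444 and 491 FPKM with estradiol and 1542 with vehicle (-1.72 ± 0.27), a call lost with the 3 libraries alone (adjusted p = 0.119, the highest over the alternatives). Krt17, a keratin of injured and activated epithelium, had 18.6 and 14.4 FPKM with estradiol and 277 FPKM with vehicle (-4.00 ± 0.30, adjusted p = 0.00067), and Krt80 fell by 3.37. Krt7 and Krt19 did not pass.

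Matrix genes changed in both directions, with 18 of 41 higher (43.9%, against 22.7% over all genes), 13 lower (31.7%, against 12.8%) and a median of 0.29. Tgfbi, an adhesion protein of the matrix, had 32.9 and 37.3 FPKM with estradiol and 520 FPKM with vehicle (-3.85 ± 0.16, adjusted p = 0.00031). Ctgf had 13.8 and 9.71 FPKM with estradiol and 259 with vehicle (-4.37 ± 0.38). The collagen Col5a2 had 11.8 and 11.3 FPKM with estradiol and 1.23 with vehicle (2.49 ± 0.16). Upward calls dropped to 3 with the 3 libraries alone, to 10 with quantile normalization, and to 8 without either library of tamoxifen plus alpelisib. Smooth muscle markers were lower with estradiol in most members tested. Of 8 tested 0 rose and 7 fell (87.5%, against 12.8% lower over all genes), with a median of -1.90. Acta2, the smooth muscle actin, had 0.811 and 0.511 FPKM with estradiol and 24.7 FPKM with vehicle (-3.96 ± 0.20). Of 15 stromal markers 3 rose and 8 fell (1 rose without either library of tamoxifen plus alpelisib): Dpt had 0.113 and 0 FPKM with estradiol and 20.3 with vehicle, while the collagen Col1a1 had 15.0 and 18.7 FPKM with estradiol and 7.52 with vehicle (1.058 ± 0.178, lost with the 3 libraries alone at an adjusted p of 0.0612). Stromal markers thus went both ways, with 20% higher (against 22.7% over all genes) and 53.3% lower (against 12.8%). The part of stroma and muscle in the changes of matrix genes, Cxcl12 and Ccl2 was not tested.

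Immediate early genes were lower with estradiol. Of 29 tested 0 rose and 17 fell (58.6%, against 12.8% lower over all genes), with a median of -1.38. The AP-1 subunit Fosl1 had 5.13 and 2.85 FPKM with estradiol and 83.5 FPKM with vehicle (-4.12 ± 0.44, adjusted p = 0.00158). The phosphatase Dusp5 had 37.9 and 29.2 FPKM with estradiol and 417 with vehicle (-3.61 ± 0.38), and the orphan receptor Nr4a3 had 0.603 and 0.556 FPKM with estradiol and 9.29 with vehicle (-2.70 ± 0.22). Not every early gene took part. Egr1, induced within minutes by many signals, had 141 and 122 FPKM with estradiol and 125 with vehicle (0.07), and Fos had 340.1 and 272 FPKM with estradiol and 592 with vehicle (-0.96 ± 0.44, adjusted p = 0.137). Fos passed as lower without tamoxifen replicate 2, and without both tamoxifen libraries. Across the series Fosl1 had 5.13 and 2.85 FPKM with estradiol, 7.08 and 15.0 with tamoxifen, 63.9 and 67.5 with tamoxifen plus alpelisib, and 83.5 with vehicle. High Fosl1 was therefore shared by 3 libraries of 2 groups. The AP-1 motif TGANTCA was found in 0 of 22 promoters of the list, against 448 of 9660 (4.64%) over all genes tested.

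In the integrated stress response 2 of 16 rose (12.5%, against 22.7% over all genes) and 7 fell (43.8%, against 12.8%). Its transcription factor Atf4 had 56.2 and 28.3 FPKM with estradiol and 289 FPKM with vehicle (-2.82 ± 0.50, adjusted p = 0.00795), while the cystine transporter Slc7a11 rose by 1.45 ± 0.25. The metallothionein Mt2, a metal-binding stress protein, had 173 and 91.8 FPKM with estradiol and 1693 FPKM with vehicle (-3.74 ± 0.81, adjusted p = 0.0156). Mt1 had 304 and 113 FPKM with estradiol and 2828 with vehicle. All 3 metallothioneins tested fell, as did the zinc exporter Slc30a1, and the zinc importer Slc39a10 rose by 0.96 ± 0.16. Both Mt1 and Mt2 lost their calls without estradiol replicate 2, and without any filter on low values, and Mt1 also without either library of tamoxifen plus alpelisib (adjusted p up to 0.107 for Mt1 and 0.0718 for Mt2). The calls of Slc30a1 and Slc39a10 were lost with the 3 libraries alone. The metal response core TGCNCNC was found in 4 of 5 promoters (80%) and is common, at 5081 of 9660 (52.6%). Folding genes of the endoplasmic reticulum moved little, with a median of -0.06. Of 27 tested 4 were higher (14.8%, against 22.7% over all genes) and 3 lower (11.1%, against 12.8%). The count upward was 2 without estradiol replicate 2 or either library of tamoxifen plus alpelisib. The oxidoreductase Pdia4 had 118 and 142 FPKM with estradiol and 34.6 with vehicle (1.88 ± 0.32), and the factor Xbp1 had 26.4 and 26.8 FPKM with estradiol and 63.9 with vehicle (-1.23 ± 0.18).

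Among metabolic genes fatty acid synthesis had 10 of 21 higher (47.6%, against 22.7% over all genes) and 1 lower (4.76%, against 12.8%). The median was 0.58, and upward calls were 5 with the 3 libraries alone. Fatty acid synthase (Fasn) had 36.7 and 62.6 FPKM with estradiol and 11.8 with vehicle (1.93 ± 0.30, adjusted p = 0.00534), and the lipogenic regulator Thrsp had 60.4 and 46.7 FPKM with estradiol and 16.9 with vehicle (1.60 ± 0.24). In sterol synthesis 5 of 24 were higher (20.8%, near the 22.7% over all genes) and 1 was lower, with a median of 0.00, and 4 were lower without estradiol replicate 1. In glycolysis and lactate use 8 of 25 rose (32%, against 22.7% over all genes) and 6 fell (24%, against 12.8%). The enolase Eno1 had 473 and 429 FPKM with estradiol and 142 with vehicle (1.66 ± 0.22, lost with the 3 libraries alone at an adjusted p of 0.0773), and the lactate exporter Slc16a3 rose by 2.25 ± 0.18, whereas the glucose carriers Slc2a1 and Slc2a3 fell by 1.18 and 1.86. TPM gave 13 and 3, and the 3 libraries alone gave 2 and 2; Slc2a1 was lost there. The retinol receptor Stra6 had 66.2 and 60.8 FPKM with estradiol and 5.57 FPKM with vehicle (3.29 ± 0.15, adjusted p = 0.000373), and the retinoid dehydrogenase genes Dhrs9 and Dhrs3 rose by 1.64 ± 0.24 and 1.45 ± 0.22. The retinoid list of 21 genes had 6 higher (28.6%, near the 22.7% over all genes) and 3 lower (14.3%, near the 12.8%). The steroid hydroxylase Cyp21a1 had 11.7 and 11.3 FPKM with estradiol and 0.084 with vehicle (3.53 ± 0.16), while the sulfotransferase Sult1a1 and the glutathione transferase Gsta4 fell. Their list of 28 had 3 higher (10.7%, against 22.7% over all genes) and 10 lower (35.7%, against 12.8%).

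In the PI3K, AKT and mTOR list 7 of 32 rose (21.9%, near the 22.7% over all genes) and 2 fell. The regulatory subunit Pik3r3 had 10.5 and 13.6 FPKM with estradiol and 1.998 with vehicle (2.11 ± 0.20), the phosphatase Inpp5d rose by 1.76 ± 0.20, and the catalytic subunit Pik3ca had 3.30 and 4.34 FPKM with estradiol and 2.84 with vehicle (0.32, not passing). Without estradiol replicate 1 the counts were 13 and 5, and without estradiol replicate 2 upward calls were 4. Without either library of tamoxifen plus alpelisib they were 3 and 1. In the IGF axis the adaptor Irs1 rose by 1.33 ± 0.19 and Irs2 fell by 1.44. Igfbp3, which binds IGF outside the cell, had 0.979 and 1.08 FPKM with estradiol and 31.9 FPKM with vehicle (-4.02 ± 0.16, adjusted p = 0.00031). In the EGF family 3 of 11 rose (27.3%, against 22.7% over all genes) and 3 fell (27.3%, against 12.8%). Only 1 rose without either library of tamoxifen plus alpelisib. The EGF receptor ligand Hbegf had 45.1 and 38.3 FPKM with estradiol and 284 with vehicle (-2.74 ± 0.34). Of 26 FOXO factors and targets 3 rose and 8 fell, led upward by Foxo3 (1.94 ± 0.30) and downward by Klf9 (-1.51 ± 0.20), and 5 fell without estradiol replicate 2 or either library of tamoxifen plus alpelisib. In Wnt signaling 8 of 30 rose (26.7%, against 22.7% over all genes) and 5 fell (16.7%, against 12.8%; 7 without estradiol replicate 1), with the receptor Fzd6 and the agonist Rspo1 higher by 1.24 ± 0.16 and 1.26 ± 0.18, and Lgr5 and the antagonist Sfrp4 lower by 1.19 and 1.72. Among apoptosis genes 12 of 25 rose (48%, against 22.7% over all genes) and 2 fell (8%, against 12.8%). The effector Bak1 had 51.5 and 46.0 FPKM with estradiol and 10.9 with vehicle (2.06 ± 0.18), and Bmf rose by 2.70 ± 0.18.

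The estradiol libraries were also set directly against the tamoxifen libraries, a contrast in the same fit that leaves the vehicle library out. In it 5977 genes passed (48.5%), 4458 higher with estradiol (36.2%) and 1519 lower (12.3%). At least 2-fold was reached by 2453 (19.9%), 1674 higher and 779 lower (6.33%). All 33 mitosis genes were higher with estradiol than with tamoxifen, with a median of 1.84, and 35 of 36 replication genes were higher, with a median of 1.70. Mki67 had 16.6 and 30.4 FPKM with estradiol and 3.65 and 2.85 FPKM with tamoxifen (2.48 ± 0.28, adjusted p = 0.00105). In the interferon list 12 of 31 were higher, near the 36.2% over all genes, and 2 lower, with a median of 0.38. No median over all genes is given for this contrast, so the list medians have no baseline here. Of all genes called, 74.6% were higher with estradiol. This share was 56.1% with median-of-ratios scaling, 52.2% with quantile normalization and 83.2% with TPM. Of the 36 uterine estrogen targets 7 were higher and 21 lower with estradiol than with tamoxifen: C3 had 448 and 652 FPKM with estradiol and 2891 and 2191 FPKM with tamoxifen (-2.22 ± 0.30, adjusted p = 0.00196), and Greb1 had 11.6 and 16.1 FPKM with estradiol and 30.7 and 36.5 with tamoxifen (-1.23 ± 0.19). Pgr had 37.2 and 39.4 FPKM with estradiol and 15.3 and 14.9 FPKM with tamoxifen (1.29 ± 0.12, adjusted p = 0.000577). Cell cycle genes and Pgr were thus higher, and several secretory estrogen targets lower, under estradiol than under tamoxifen. The mitosis difference of this contrast does not rest on the vehicle library.

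Markers of further cell types are given by list, to be read beside the shares over all genes, 22.7% higher and 12.8% lower. Of 11 endothelial markers 1 rose and 4 fell (6 fell without estradiol replicate 1, and 1 without either library of tamoxifen plus alpelisib), and of 6 mesothelial markers 2 rose and 1 fell (1 rose without estradiol replicate 1 or either library of tamoxifen plus alpelisib). Neutrophil markers reached the filter in 4 of 12, of which 2 rose, Ltf among them, and 6 were at 0 in all 3 libraries, the defining Elane and Mpo among those. Gland markers gave 0 higher and 2 lower of 9 (1 higher without estradiol replicate 2, and 4 lower without either tamoxifen library), and the gland factor Foxa2 had 1.21 and 0.341 FPKM with estradiol and 0.334 FPKM with vehicle. Luminal markers gave 2 higher (25%) and 3 lower (37.5%) of 8, and squamous markers 5 higher (41.7%) and 2 lower (16.7%) of 12. The remaining lists had at most 5 tested members: 1 of 2 ciliated markers fell, 1 of 2 B and plasma cell markers rose (0 without any 1 of the estradiol or tamoxifen libraries), 1 of 2 mast cell markers rose and 1 fell, 2 of 5 erythroid markers rose (3 without estradiol replicate 1), 1 of 2 adipocyte markers rose and both ovary and oviduct markers fell (1 without replicate 1 of tamoxifen plus alpelisib). The mast cell list rose through the receptor Kit, at 6.18 and 8.32 FPKM with estradiol and 0.544 with vehicle, while the proteases Cpa3, Mcpt4 and Cma1 were at 0 in both estradiol libraries.

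**Figure D4:**
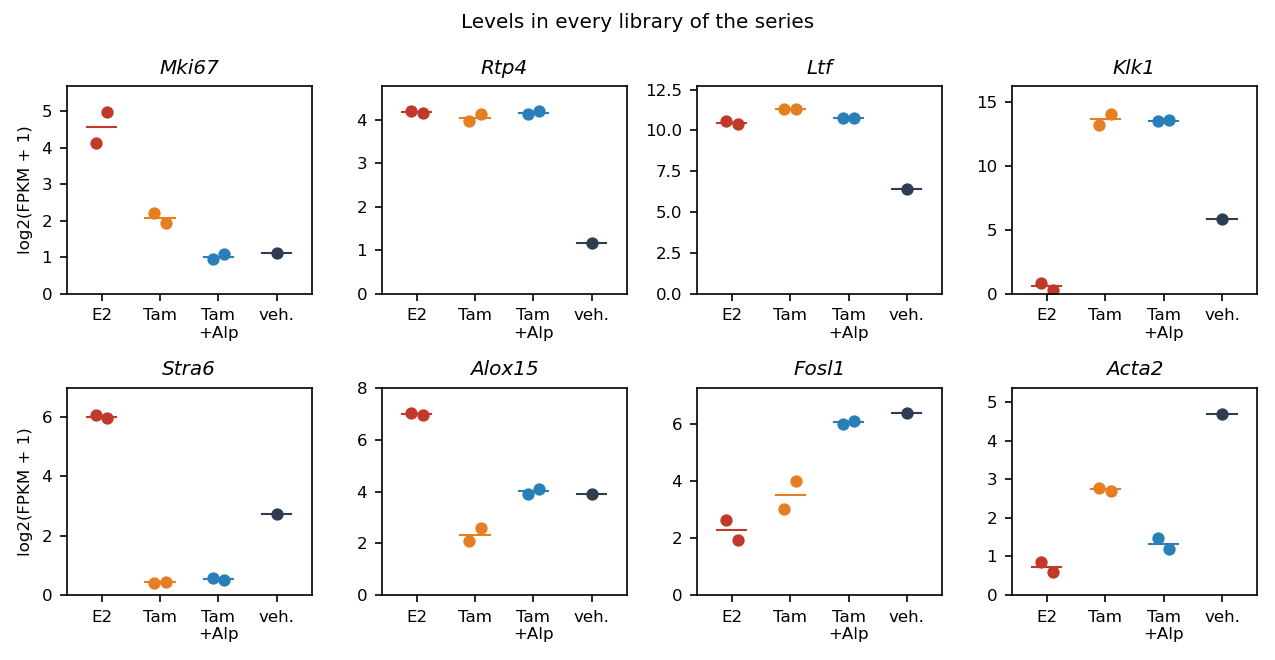
Levels of 8 genes in all 7 libraries on log2(FPKM + 1) axes that start at 0, for estradiol (E2), tamoxifen (Tam), tamoxifen plus alpelisib (Tam +Alp) and vehicle (veh.), with points for libraries and lines for group means. Mki67 is highest with estradiol, Rtp4 is low in the vehicle library alone, and Klk1 and Stra6 lie on opposite sides of vehicle with estradiol and with tamoxifen.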

How the data were processed

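Total RNA of endometrial epithelial cells from uterine horns was sequenced in 7 libraries. The deposited values are FPKM per gene, made by the authors with CASAVA, Bowtie and Cufflinks per the submitters' processing notes, which give no versions and name only a human genome build although the symbols are those of mouse. A test for counts had been allowed for, but the values were FPKM. They were taken as log2(FPKM + 1), without further scaling, after a filter that kept the 12314 genes reaching 1 FPKM in 1 library or more, and fitted with limma-trend 3.58.1 in R 4.3.3 as 4 group means over all 7 libraries (3 residual and 3.27 prior degrees of freedom). The 1 vehicle library adds no spread of its own and takes that of the other groups. P-values were adjusted over all genes by the Benjamini-Hochberg method. The fit was also run on simulated data, in which every library had the spread estimated by the fit itself. That run cannot test a spread particular to the vehicle library. Tables and figures were made with Python 3.11.15, numpy 2.4.6, pandas 2.3.3 and matplotlib 3.10.9.

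The gene lists were chosen with earlier results of these data known. Genes named are the 10 highest and 10 lowest log2 fold changes among those past an adjusted p of 0.05 with a mean FPKM of at least 5 and both estradiol libraries on 1 side of vehicle (predicted models, small RNAs, pseudogenes, histones and names turned into dates left out), the 4 members of smallest p (or fewer) in each list, 10 genes taken whatever their values (Esr1, Pgr, Greb1, Ltf, C3, Muc1, Ccnd1, Mki67, Igf1 and Wnt7a), and the 5 with the largest difference between the estradiol libraries. Other members named, Isg15, Top2a, Mt1, Egr1 and Pcna among them, were chosen after their values were seen. The CCAAT box, the cell cycle homology region, the interferon-stimulated response element and the metal response core were added after the data were seen. Symbols matched the mouse annotation for 23697 of 24353 genes and older symbols for 542. No source used here says how reads of near-identical copies were assigned. Alternatives were median-of-ratios scaling, TPM computed from FPKM, quantile normalization, other filters, a pseudocount of 0.1, a robust prior, fewer libraries in the fit, a fold of at least 2 and each replicate left out. Results for some genes are not reported here.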

Additional observations from a re-analysis of the deposited data

Results flagged for a closer look

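Of the genes named by rule, other than those named for a difference between the estradiol libraries, 10 had values to look at again. In these both estradiol libraries and both tamoxifen libraries lay at least 2-fold on opposite sides of the vehicle library on the log2(FPKM + 1) scale, and estradiol differed from tamoxifen by limma's test with Benjamini-Hochberg adjustment. The vehicle side of each rests on 1 library. In 6 genes estradiol was the high side. Stra6 had 66.2 and 60.8 FPKM with estradiol, 0.319 and 0.368 with tamoxifen and 5.57 with vehicle, a log2 difference of estradiol over tamoxifen of 5.58 ± 0.12 (adjusted p = 1.2e-05). The difference was 4.66 for Alox15, 3.59 for Thrsp, 3.20 for H2-Ab1, 2.48 for the lysophosphatidic acid receptor Lpar3 and 2.25 for Gper1. Lpar3 had 10.7 and 10.6 FPKM with estradiol, 0.826 and 1.42 with tamoxifen and 4.25 with vehicle.

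In 4 genes tamoxifen was the high side. Klk1 had 0.736 and 0.236 FPKM with estradiol, 9358 and 17320 with tamoxifen and 57.0 with vehicle, a difference of -13.09 ± 0.35 (adjusted p = 1.65e-05). Its relative Klk1b21 differed by -10.11. Klk1b24 was listed at 0 in both estradiol libraries, with 475 and 611 FPKM with tamoxifen and 8.73 with vehicle, and differed by -9.08. The retinoic acid binding protein Crabp1 was likewise listed at 0 in both estradiol libraries and differed by -2.74. Reads of the near-identical Klk1b copies cannot be assigned with certainty.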

How the results depend on the processing

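Of 212 named genes 192 passed between estradiol and vehicle, and 0 reversed under any alternative run. The 3 libraries alone ended 23 of these calls, no filter on low values 7, TPM 6, and a robust prior 0. Most of these genes were named for their fold change or p-value in this same fit, so the choice favored calls that hold. Counts over all genes moved as follows. The 3 libraries alone gave 1597 genes (971 higher, 626 lower) and a fold of at least 2 gave 2271 (1351 higher, 920 lower). TPM gave 4244 higher. Leaving out 1 replicate gave 2808 to 5063 genes, 1792 to 2993 higher and 1016 to 2070 lower; the low end came without either library of tamoxifen plus alpelisib. The median of all genes was 0.030 with median-of-ratios scaling, 0.453 with TPM, 0.020 with quantile normalization and 0.017 without a filter, and 0.066 to 0.166 with 1 replicate left out. Genes 2-fold higher in both estradiol libraries numbered 1829 with a pseudocount of 0.1 and 2451 with TPM. For estradiol against tamoxifen, median-of-ratios scaling gave 2480 lower, and quantile normalization gave 2756 higher and 2523 lower. A fold of at least 2 gave 2453 (1674 higher, 779 lower), and leaving out 1 replicate gave 4326 to 6090, 3235 to 4185 higher and 917 to 1905 lower, the 917 without tamoxifen replicate 2. The cause was not tested. No paired analysis was possible because the vehicle group has 1 library, so it shares fewer than 2 replicate numbers with estradiol. The labels also do not say that mice of the same number in different groups were paired, and a shared number alone would not make a pair. The uncertain depth of estradiol 2 limits values near 0 there.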

Other observations

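The following 4 glycosyltransferase genes were picked after their values were seen, so they do not describe such genes as a group. Fut2, the fucosyltransferase of epithelial secretions, had 38.7 and 45.0 FPKM with estradiol and 2.74 FPKM with vehicle (log2 fold change 3.51 ± 0.17, adjusted p = 0.000373 by limma's test with Benjamini-Hochberg adjustment). The sialyltransferase St6gal1 had 38.7 and 42.5 FPKM with estradiol and 2.76 with vehicle (3.47 ± 0.20), and Gcnt3, which branches mucin sugars, had 28.0 and 31.9 FPKM with estradiol and 1.86 with vehicle (3.43 ± 0.25). The ganglioside enzyme B4galnt1 had 24.2 and 16.5 FPKM with estradiol and 0.908 with vehicle (3.46 ± 0.26). In all 4 genes both estradiol libraries lay far above the vehicle library. Outside the genes named by rule, and seen only afterwards, Ldhb lay on opposite sides of vehicle with estradiol and with tamoxifen. In Ldhb, the lactate dehydrogenase subunit B, the levels were 384 and 257 FPKM with estradiol, 6.73 and 7.69 with tamoxifen, and 110.5 with vehicle.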
